A study of Homo sapiens with 8 samples.

Results

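The genes described here are the 10 members of an iron uptake, storage and heme breakdown group, chosen by name from knowledge of the pathway: TFRC, SLC11A2, STEAP3, FTH1, FTL, NCOA4, SLC40A1, HMOX1, IREB2 and ACO1. Earlier results of these data were known when they were chosen. All 10 of the 10 are among the 63241 genes of the NCI-H716 tables and all 10 were tested there. The HCT116 table used here covers chromosomes 1 to 8 and the start of chromosome 9, 28043 genes in all, and holds 3 of them, TFRC, STEAP3 and SLC40A1, of which 2 passed the filter on low counts and were tested. The other 7 were not analysed here in HCT116.

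RNA-seq had been run on HCT116 and NCI-H716, human colorectal cancer cell lines, as control cells or cells given Z325 (ZINC000101867325), a compound the study picked by docking to FGFR kinase domains. Each of the 4 groups had 2 libraries, 8 in all, made from about 100 cells per reaction by full-length cDNA amplification, and all groups are the unmodified lines. The labels name neither a dose nor a treatment time for these libraries, nor what the control cells received, and the study's text sets a concentration for its later experiments without naming one for the RNA-seq. The study calls the replicates biological, but neither it nor the labels say whether they were separate cultures, so p-values measure the spread between these libraries, part of which may be technical. Library totals were 10210239 to 19738840 expected counts in NCI-H716. In HCT116 they were 13183792 to 13396225 counts in 3 libraries and 3434620 in Z325 replicate 2, which was therefore the least precise.

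The labels were checked against cell type markers. EPCAM, an epithelial adhesion protein, was at 1424 to 1655 CPM (counts scaled to a library of 1000000) in HCT116 and at 38.6 to 50.2 CPM in NCI-H716. Of 7 epithelial markers, 5 were at 1 CPM or more in every NCI-H716 library, among them KRT8 at 274 to 361 CPM and KRT18 at 271 to 334 CPM, while CDH1 and KRT20 never exceeded 9 counts. The gut hormone gene GCG was at 1642 to 2541 CPM in this line. Of 6 enteroendocrine markers, GCG among them, 5 were at 1 CPM or more in every NCI-H716 library, while NEUROD1 had at most 1 count. Of 5 fibroblast markers 1 was at that level in every NCI-H716 library, LUM, at 117.0 to 276.5 CPM. Of the 2 epithelial markers on the HCT116 table, the other, VIL1, had at most 6 counts in any library.

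Cells take up iron by binding transferrin at the transferrin receptor, reducing the iron in endosomes and moving it to the cytosol. Iron that is not used is stored in ferritin, a shell of heavy and light chains, and is released again when ferritin is carried to lysosomes. Heme oxygenase breaks heme down to biliverdin, carbon monoxide and iron, and ferroportin is the exporter of iron from the cell. Iron regulatory proteins bind RNA hairpins called iron-responsive elements (IREs) when iron is scarce, which blocks translation of messages with an element in the 5′ untranslated region (UTR) and stabilizes the transferrin receptor message, which carries several in its 3′ UTR.

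IRE hairpins were found in 4 of the 10 genes and are shown because they divide the group into messages with an element before and after the coding sequence. The pattern searched on GENCODE v44 transcripts was a 29-base site with the loop CAGTGN, an unpaired C before 5 stem bases, and full pairing of the stem with G-U pairs allowed, and capitals mark the loop. The first 3 sites lie in 5′ UTRs, at chr11:61967574-61967602 (minus strand), chr19:48965335-48965363 (plus strand) and chr2:189580661-189580689 (minus strand) of GRCh38.
FTH1: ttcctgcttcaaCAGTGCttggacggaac
FTL: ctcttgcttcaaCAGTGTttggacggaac
SLC40A1: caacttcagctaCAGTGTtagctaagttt
The 4 sites of TFRC lie in its 3′ UTR on the minus strand of chromosome 3, at chr3:196050463-196050491, chr3:196050510-196050538, chr3:196050575-196050603 and chr3:196050979-196051007, in the order printed.
TFRC site a: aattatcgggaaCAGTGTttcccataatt
TFRC site b: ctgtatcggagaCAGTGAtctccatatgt
TFRC site c: cattatcgggagCAGTGTcttccataatg
TFRC site d: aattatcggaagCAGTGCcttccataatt
Over 19702 protein-coding genes, a site by the same rule was present in the 5′ UTR of 0.198% and in the 3′ UTR of 0.721%. The rule found none in SLC11A2, NCOA4, STEAP3, IREB2, ACO1 or HMOX1, which says only that this pattern is not in their listed transcripts.

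The mean control levels of the 10 genes in NCI-H716 ran from 0.38 to 15560 TPM, which counts the transcripts of a gene per 1000000 transcripts and so allows levels to be compared between genes of different length. FTL, the ferritin light chain, was at 17005 and 14115 TPM in the controls and at 34352 and 15542 TPM under Z325, and ranked 2nd or 3rd of all genes in every library. FTH1, the ferritin heavy chain with the ferroxidase activity, was at 1335 and 700 TPM in the controls and at 2300 and 1984 TPM under Z325. The 2 ferritin chains together made up 1.83% and 1.48% of all TPM in the controls and 3.67% and 1.75% under Z325.

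Below the ferritins, TFRC stood at a mean of 62.9 TPM in the controls, NCOA4 at 17.9, IREB2 at 14.2, SLC11A2 at 6.96, ACO1 at 4.19, STEAP3 at 0.88 and HMOX1 at 0.38 TPM, each over 2 libraries. SLC40A1 stood between IREB2 and SLC11A2, at 13.8 and 11.1 TPM. IREB2 and SLC40A1 were the only neighbours in this order whose control libraries overlapped. The ratio of FTL to FTH1 TPM was 12.7 and 20.2 in the controls and 14.9 and 7.83 under Z325, so the groups overlapped in that ratio.

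**Figure D1:**
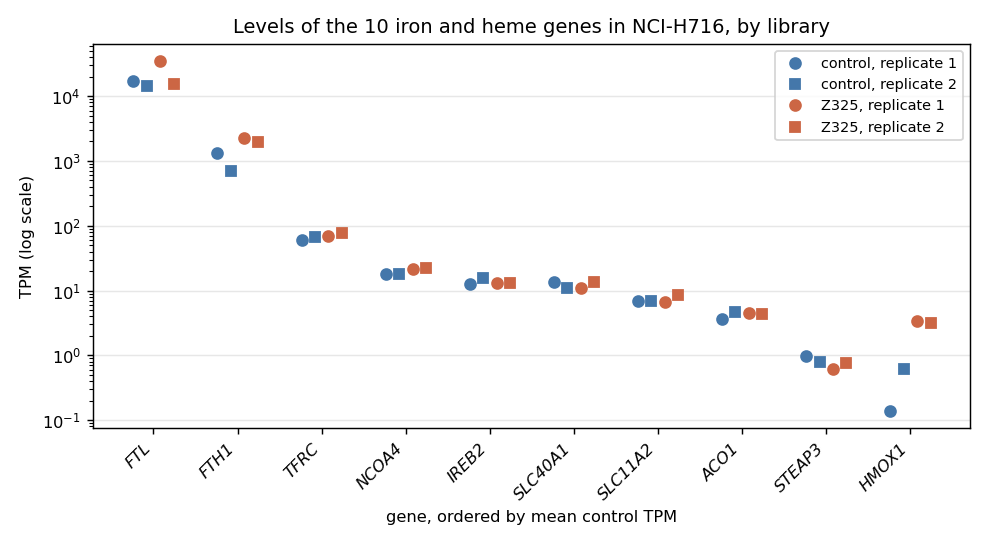
Level of each gene in each NCI-H716 library in TPM on a log scale, with genes ordered by mean control level, circles for replicate 1 and squares for replicate 2 of control (blue) and Z325 (orange). HMOX1 stood at 0.14 and 0.62 TPM in the controls and at 3.44 and 3.21 TPM under Z325, while the points of IREB2, SLC40A1 and ACO1 overlapped between the groups.

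The first comparison asked how the 10 genes differed between Z325 and control in NCI-H716. HMOX1 had the largest fold change, from near the detection limit in the controls, and the ferritin chains FTH1 and FTL had the next largest, while the confidence intervals of the importers, the iron exporter and the iron regulatory proteins all included 0. None of the 10 passed an adjusted p of 0.05 in edgeR's quasi-likelihood test with Benjamini-Hochberg adjustment over 14142 genes, where 0.502% of all genes passed. At an unadjusted p under 0.05 there were 3, HMOX1, FTH1 and FTL, against 16.9% of all genes, and DESeq2 called 1, HMOX1, against 2.57%. Of the 10 fold changes 9 were positive, with a median log2 fold change of 0.28 beside -0.01 for all genes tested. In 4 of the 10, HMOX1, FTH1, TFRC and NCOA4, both Z325 libraries lay above both controls, as they did for 24.3% of all genes, and in none of them did both lie below, against 25.1%.

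HMOX1 (chr22:35380361-35394214, plus strand), the inducible heme oxygenase, had 2 and 7 counts in the controls and 49 and 72 under Z325. On the TMM-normalized scale these were 0.151 and 0.679 CPM against 3.74 and 3.62 CPM. Both Z325 libraries were thus well above both controls and close to each other, and the controls rested on very few reads. HMOX1 passed the filter on low counts only through its Z325 libraries, and with a filter at 10 counts in each library it was not tested, so its test and its place in the counts over the 10 genes are a description. The log2 fold change was 3.19 ± 0.68 (SE; 95% confidence interval 1.70 to 4.69; n = 2 libraries per group), with an unadjusted p of 0.000737 and an adjusted p of 0.0813 in edgeR. DESeq2 gave an adjusted p of 0.00897. In bulk samples such as these, more cells that express a gene and more RNA per cell cannot be told apart.

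The genes whose profile over the 4 libraries lay nearest to that of HMOX1 were found by Euclidean distance of log2 CPM, centred on the control mean, among tested genes of at least 10 CPM. In order they were AKR1C2 at a distance of 1.33, TRIM16L at 1.37, AKR1C1 at 1.44, GPX2 at 1.59 and LINC01564 at 1.66 log2 units. AKR1C1 and AKR1C2 encode aldo-keto reductases with near-identical sequences, TRIM16L has a close relative in TRIM16, and GPX2 encodes a gastrointestinal glutathione peroxidase. GPX2 differed by a log2 fold change of 2.78 ± 0.20 (SE). All of these genes were picked for a profile like that of HMOX1 in the same libraries. A rise under Z325 was thus built into the choice, so their fold changes are a description and no test is given. HMOX1, the reference, itself rested on very few reads in the controls. For AKR1C1, AKR1C2 and TRIM16L, reads shared with relatives make the values uncertain.

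FTH1 (chr11:61959718-61967634, minus strand) was at 1270 and 611 CPM in the controls and at 1994 and 1495 CPM under Z325. Both Z325 libraries lay above both controls, but the 2 controls stood apart by a ratio of 2.08, a spread that only 0.172% of the 1746 tested genes with a mean of at least 100 CPM reached. The log2 fold change was 0.89 ± 0.29 (SE; 95% confidence interval 0.24 to 1.54), with an unadjusted p of 0.0117 and an adjusted p of 0.188 in edgeR.

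FTL (chr19:48965309-48966879, plus strand) was at 14390 and 11470 CPM in the controls and at 28340 and 12900 CPM under Z325. Z325 replicate 1 was high, and Z325 replicate 2 lay between the controls, so the groups overlapped. The Z325 libraries differed from each other by a ratio of 2.20, which 0.687% of genes of at least 100 CPM reached. Its log2 fold change was 0.67 ± 0.30 (SE; 95% confidence interval 0.00 to 1.34), with an adjusted p of 0.293 in edgeR, and was -0.003968 without Z325 replicate 1 and 1.15 without Z325 replicate 2.

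These 3 genes were the members whose call changed with the fit. A fit with 1 library left out has a single library in that arm, which is assumed to vary like the other group, and its calls are no support by themselves. Leaving out 1 library at a time, FTH1 passed without control replicate 1, HMOX1 passed without control replicate 2, FTH1 and HMOX1 passed without Z325 replicate 1, and all 3 passed without Z325 replicate 2. The log2 fold change over these fits ran from 2.42 to 4.55 for HMOX1, from 0.48 to 1.51 for FTH1 and from -0.003968 to 1.15 for FTL. With no filter on low counts all 3 passed, beside 2.43% of 31956 genes. The share of all genes that passed moved as well, to 0.297% without control replicate 1, 1.33% without control replicate 2, 9.94% without Z325 replicate 1 and 1.60% without Z325 replicate 2.

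**Figure D2:**
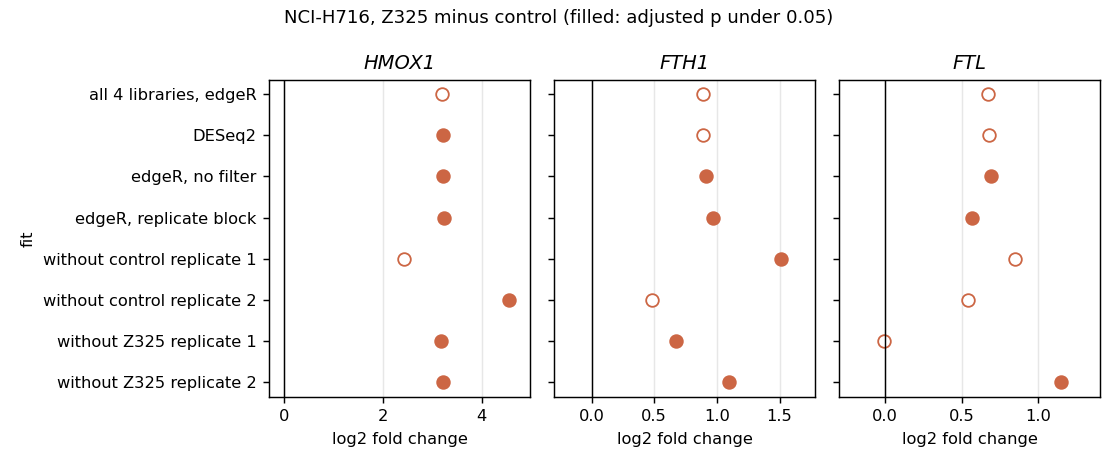
Log2 fold change, Z325 minus control, of HMOX1, FTH1 and FTL in NCI-H716 under 8 fits, with filled circles for an adjusted p under 0.05 in that fit. All fits of HMOX1 and FTH1 lie to the right of 0, and FTL lies at -0.003968 without Z325 replicate 1.

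Among the genes of uptake, TFRC (chr3:196012511-196082153, minus strand), the transferrin receptor, was at 275 and 306 CPM in the controls and at 337 and 379 CPM under Z325. The groups did not overlap, but the distance was small, with a log2 fold change of 0.30 ± 0.16 (SE) and an adjusted p of 0.364 in edgeR. SLC11A2 (chr12:50979401-51028566, minus strand), the divalent metal transporter DMT1, was at 25.0 and 27.8 CPM against 25.9 and 37.1 CPM, with overlapping groups, a log2 fold change of 0.26 ± 0.22 (SE) and an adjusted p of 0.598. STEAP3 (chr2:119223831-119265652, plus strand), an endosomal ferrireductase, was low at 4.77 and 3.78 CPM against 3.13 and 3.92 CPM, and was the only one of the 10 with a negative fold change in this fit, -0.28 ± 0.38 (SE; adjusted p = 0.760 in edgeR), while limma on log2(FPKM + 1) put IREB2 below 0 too, at -0.03.

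NCOA4 (chr10:46005088-46030623, minus strand), the receptor that carries ferritin to lysosomes, was at 77.5 and 75.5 CPM in the controls and at 92.9 and 98.5 CPM under Z325. Its replicates lay closest together of the 10 genes in the controls, at a ratio of 1.03, and the groups did not overlap. Its log2 fold change was 0.32 ± 0.16 (SE; 95% confidence interval -0.04 to 0.69), with an adjusted p of 0.343 in edgeR.

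SLC40A1 (chr2:189560590-189583758, minus strand), the iron exporter ferroportin, was at 56.3 and 43.6 CPM in the controls and at 44.6 and 56.4 CPM under Z325, a log2 fold change of 0.02 with a 95% confidence interval of -0.44 to 0.47. IREB2 (chr15:78437431-78501453, plus strand), iron regulatory protein 2, was at 89.0 and 114 CPM against 102 and 103 CPM, a log2 fold change of 0.02 with an interval of -0.38 to 0.41. ACO1 (chr9:32384603-32454769, plus strand), the cytosolic aconitase that acts as iron regulatory protein 1 when it lacks its iron-sulfur cluster, was at 17.2 and 22.1 CPM against 21.7 and 20.4 CPM, a log2 fold change of 0.10 with an interval of -0.39 to 0.59. For each of these 3 the groups overlapped, and the intervals leave room for differences in either direction.

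The second comparison asked the same of HCT116, for the members on its table. TFRC and STEAP3 were lower in both Z325 libraries than in both controls, as were 29.0% of all genes tested. Neither passed an adjusted p of 0.05 in edgeR over 6491 genes, where 5.78% of all genes passed, and 1, STEAP3, had an unadjusted p under 0.05, against 23.9%. DESeq2 called 0 of the 2, against 11.7% of all genes. The median log2 fold change of the 2 was -0.82 beside -0.03 for all genes tested.

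TFRC in HCT116 was at 573 and 603 CPM in the controls and at 462 and 505 CPM under Z325. The means were 588 ± 21.4 and 483 ± 30.0 CPM (SD, n = 2), so the gap was wider than either spread. The log2 fold change was -0.28 ± 0.12 (SE), with an unadjusted p of 0.0512 and an adjusted p of 0.212 in edgeR.

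STEAP3 in HCT116 had 91 and 112 counts in the controls and 44 and 8 under Z325, the last in the shallow library. These were 6.58 and 8.59 CPM against 3.44 and 2.29 CPM. Its log2 fold change was -1.35 ± 0.45 (SE; 95% confidence interval -2.37 to -0.32), with an unadjusted p of 0.0160 and an adjusted p of 0.116 in edgeR. DESeq2 gave an adjusted p of 0.175. With 1 library left out, the log2 fold change ran from -1.73 to -1.10. The antisense gene STEAP3-AS1, which shares 500 exon bases with STEAP3, had at most 1 count in any HCT116 library.

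SLC40A1 had 0 and 4 counts in the HCT116 controls and 3 and 0 under Z325 and did not pass the filter. A count of 0 allows up to 3 counts, which is 0.225 CPM of the library total in control replicate 1 and 0.874 CPM in Z325 replicate 2 (counting error only), so a difference was not detectable at this depth.

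**Figure D3:**
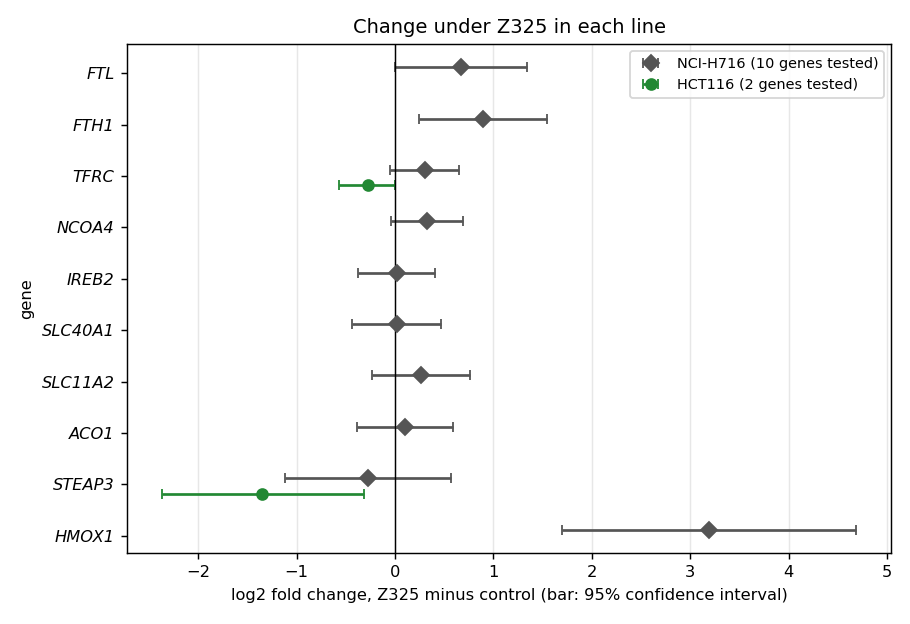
Log2 fold change, Z325 minus control, with 95% confidence intervals from edgeR, for the 10 genes tested in NCI-H716 (diamonds) and the 2 tested in HCT116 (circles). The HMOX1 interval, 1.70 to 4.69, lies farthest from 0, and the TFRC estimates lie on opposite sides of 0 in the 2 lines.

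The third comparison was between the lines. TFRC lay above both controls in NCI-H716 and below both in HCT116, and the difference of the log2 fold changes, NCI-H716 minus HCT116, was 0.57 ± 0.20 (SE; 95% confidence interval 0.15 to 1.0), with an unadjusted p of 0.0128 and an adjusted p of 0.235 in edgeR over 7642 genes. For STEAP3 the difference was 1.04 ± 0.61 (SE; adjusted p = 0.462 in edgeR). None of the 3 members on both tables passed, against 0.0654% of all genes, and DESeq2 called 0, against 1.73%. At an unadjusted p under 0.05 there was 1, TFRC, against 14.3%.

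Levels in the 2 lines were set side by side per length over the 28015 genes on both tables, with no test because the tables were counted in different ways. TFRC was at 99.3 and 99.9 TPM in the HCT116 controls and at 151 and 164 TPM in the NCI-H716 controls. STEAP3 was at 4.34 and 5.42 TPM against 2.49 and 1.93 TPM. SLC40A1 was listed at 0 and 0.209 TPM in the HCT116 controls and at 35.0 and 27.4 TPM in those of NCI-H716.

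Reads of the ferritin heavy chain can also land on its neighbours and copies. FTH1 shares 1267 exon bases, 63.2% of its own, with BEST1 on the other strand, and without strand the reads of the 2 genes cannot be told apart. BEST1, which encodes a chloride channel, was at 1.67 and 0.873 CPM in the NCI-H716 controls and at 8.40 and 18.6 CPM under Z325. It rose, with a log2 fold change of 3.38 ± 0.47 (SE) and an adjusted p of 0.0130 in edgeR, and the log2 fold change ran from 2.71 without Z325 replicate 2 to 3.95 without control replicate 1. It was named for this overlap after its values had been seen.

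Processed pseudogenes of FTH1 are near-identical copies of its message scattered over the genome. The 7 copies tested in either line matched an FTH1 transcript at 96.6% to 97.8% of their aligned bases, so their reads are uncertain. In NCI-H716 the 25 listed copies summed to 5.07 and 5.43 CPM in the controls and 9.85 and 18.6 CPM under Z325, which is little beside FTH1 itself, and adding the copies to FTH1 and FTL left their log2 fold changes at 0.89 and 0.67. FTH1P11 had the smallest adjusted p of the 4 copies tested there, 0.10 in edgeR, at a log2 fold change of 2.17 ± 0.49 (SE).

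In HCT116, where the chromosome of FTH1 was not analysed, 17 listed copies summed to 16.2 and 19.7 CPM in the controls and to 41.3 and 254 CPM under Z325. Of the 11 copies with counts 5 were tested, and FTH1P10 and FTH1P15, with 4 to 10 counts in the controls, passed the filter only through their Z325 libraries. Most of the Z325 sum came from the shallow library, and both Z325 libraries lay above both controls for FTH1P11, FTH1P20 and FTH1P23, beside 24.8% of all genes. FTH1P20 (chr2:180872867-180873414) was at 8.10 and 7.67 CPM in the controls and 18.9 and 65.6 CPM under Z325. It passed, with a log2 fold change of 2.39 ± 0.53 (SE; adjusted p = 0.0390 in edgeR), which was 3.04 without Z325 replicate 1 and 1.29 without Z325 replicate 2. Its adjusted p was 0.276 without control replicate 1 and 0.346 without control replicate 2. FTH1P23 was at 2.31 and 3.15 CPM against 5.71 and 76.5 CPM, and FTH1P11 at 4.12 and 6.37 CPM against 9.38 and 97.1 CPM, with adjusted p-values of 0.0607 and 0.0679.

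**Figure D4:**
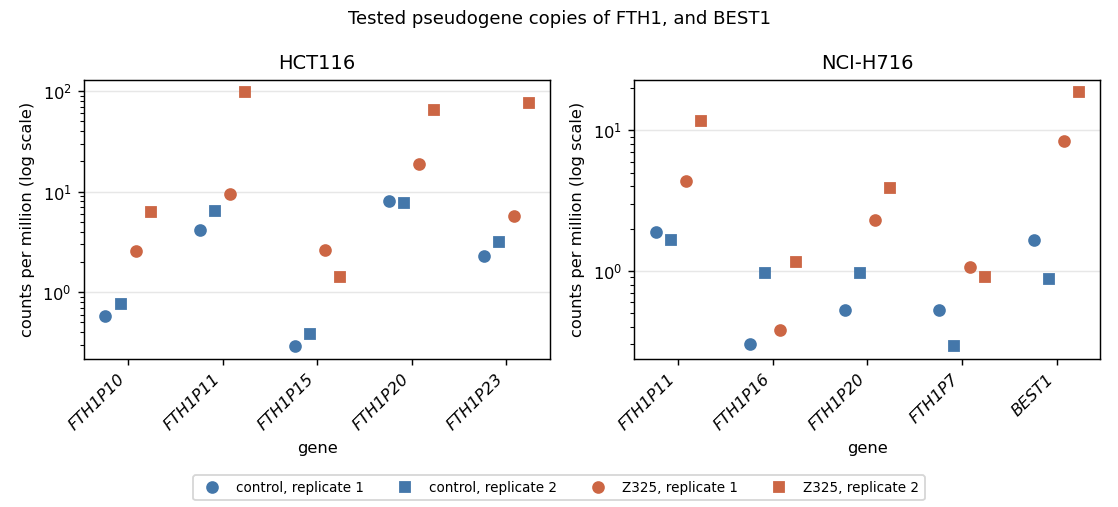
CPM on a log scale of each tested FTH1 pseudogene copy in HCT116 (left) and NCI-H716 (right, with BEST1), circles for replicate 1 and squares for replicate 2 of control (blue) and Z325 (orange). In HCT116 the 3 copies FTH1P11, FTH1P20 and FTH1P23 stood at 65.6 to 97.1 CPM in Z325 replicate 2 and at 5.71 to 18.9 CPM in Z325 replicate 1.

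Wider lists of iron and heme genes show what surrounded the 10 members. In NCI-H716, 0 of 5 tested genes of iron uptake and export, 0 of 12 of iron storage, chaperones and sensing, 0 of 12 of heme synthesis, 0 of 11 of heme transport and breakdown and 0 of 24 of iron-sulfur cluster assembly passed in edgeR. At an unadjusted p under 0.05, against 16.9% of all genes, these lists held 0, 2, 4, 5 and 6 genes, and their median log2 fold changes were 0.33, -0.07, 0.12, -0.15 and -0.17. FECH, ferrochelatase, which inserts iron into protoporphyrin to form heme, had the smallest adjusted p of them. It was at 10.8 and 15.1 CPM in the controls and 29.3 and 29.2 CPM under Z325, with a log2 fold change of 1.18 ± 0.23 (SE; adjusted p = 0.0665 in edgeR). BACH1, the heme-binding repressor of HMOX1, was at 10.6 and 10.4 CPM against 18.6 and 22.9 CPM (0.98 ± 0.23 SE; adjusted p = 0.114 in edgeR). SLC25A39, a mitochondrial glutathione carrier, was at 187 and 111 CPM against 85.9 and 53.5 CPM (-1.10 ± 0.28 SE; adjusted p = 0.121 in edgeR). DESeq2 called 0, 1, 2, 1 and 0 genes of the 5 lists, SLC25A39, FECH and BACH1 among them, against 2.57% of all genes.

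In HCT116 edgeR called falls in heme synthesis and in iron-sulfur cluster assembly. Of the 7 tested genes of heme synthesis 0 rose and 2 fell in edgeR, CPOX and UROD, consecutive enzymes of the porphyrin part of the pathway, against 2.94% of all genes, and DESeq2 called 1 higher, ALAS1, and 2 lower. ALAS1, the first enzyme of the pathway, was at 65.4 and 68.4 CPM in the controls and 101 and 109 CPM under Z325, a log2 fold change of 0.65 ± 0.17 (SE; adjusted p = 0.0619 in edgeR and 0.00811 in DESeq2). CPOX was at 237 and 180 CPM in the controls and 80.2 and 96.3 CPM under Z325, a log2 fold change of -1.25 ± 0.19 (SE; adjusted p = 0.0114 in edgeR), and UROD at 261 and 374 CPM against 159 and 131 CPM (-1.13 ± 0.20 SE; adjusted p = 0.0178). In NCI-H716 UROD had a log2 fold change of -0.46 ± 0.19 (SE; adjusted p = 0.271 in edgeR), and CPOX had one of 0.48 ± 0.24 (SE; adjusted p = 0.331), with both Z325 libraries above both controls. CIAO1, of cytosolic iron-sulfur assembly, was the 1 of 6 tested in its list that edgeR called lower, against 2.94% of all genes (-0.70 ± 0.16 SE; adjusted p = 0.0447 in edgeR). DESeq2 called 1 of that list lower, CIAO1, and 1 higher, BOLA3, against 11.7% of all genes in either direction. BOLA3 had a log2 fold change of 0.44 ± 0.14 (SE; adjusted p = 0.0975 in edgeR). In the uptake, storage and heme transport lists 0 of 7, 0 of 5 and 0 of 3 passed in edgeR, against 5.78% of all genes. At an unadjusted p under 0.05 they held 1, 3 and 2 genes, against 23.9%, and in DESeq2 1, 1 and 0, against 11.7%. Over all 7 HCT116 lists 9 of 42 tested genes passed in edgeR, against 5.78% of all genes, and 5 of these were in the NRF2 list described below. Both the count of 9 and the share of all genes depended strongly on which library was left out.

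Genes that carry ferritin or follow the antioxidant factor NRF2, which is known to act on FTH1, FTL and HMOX1, were listed for reference. Of 15 NRF2 targets in NCI-H716, 9 rose and 0 fell, beside 0.403% and 0.099% of all genes, with a median log2 fold change of 1.31. AKR1B10 and OSGIN1, among the 9, had 3 to 10 counts in the controls and passed the filter on low counts only through their Z325 libraries. Their tests and their place in this count and median are a description. SLC7A11, the cystine importer, was at 43.8 and 54.9 CPM in the controls and 236 and 233 CPM under Z325 (2.25 ± 0.18 SE; adjusted p = 0.000404 in edgeR). Over all 7 NCI-H716 lists 10 of 89 tested genes passed in edgeR, against 0.502% of all genes. Of these, 9 were in the NRF2 list, AKR1B10 and OSGIN1 among them, and 1 was SQSTM1, with none in the iron and heme lists above. Both the count of 10 and the share of all genes depended on which library was left out. In HCT116, 5 of 7 tested rose and 0 fell, beside 2.83% and 2.94% of all genes, with a median of 1.73. Of the 10 tested genes of the machinery that takes ferritin into autophagosomes in NCI-H716, 1 rose, SQSTM1, the autophagy receptor p62, from 107 and 104 to 351 and 291 CPM (1.61 ± 0.17 SE; adjusted p = 0.00221 in edgeR). In HCT116, 1 of the 7 tested genes of that list rose in edgeR, against 2.83% of all genes. It was TAX1BP1, the receptor that works with NCOA4, at 473 and 456 CPM against 758 and 650 CPM (0.60 ± 0.13 SE; adjusted p = 0.0390 in edgeR). SQSTM1 there had 5 and 15 counts in the controls and 148 and 5 under Z325, so its value was low and rested on 1 library. Its log2 fold change was 3.19 ± 0.93 (SE; adjusted p = 0.0852 in edgeR). SQSTM1 passed the filter on low counts here only through its Z325 libraries, so its tests are a description. DESeq2 called 2 of these 7 genes higher, TAX1BP1 and SQSTM1, while it called 11.7% of all genes in either direction. Exons shared with another gene make some of these values uncertain. SQSTM1 shares 21.0% of its exon bases with MRNIP, UROD 9.3% with HECTD3 and SLC7A11 9.0% with SLC7A11-AS1, each on the other strand. Among the 9 NRF2 targets counted as risen in NCI-H716, SRXN1 shares 90.7% with a gene on the same strand. NQO1, also among them, shares 19.4% with a gene on the other strand.

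**Figure D5:**
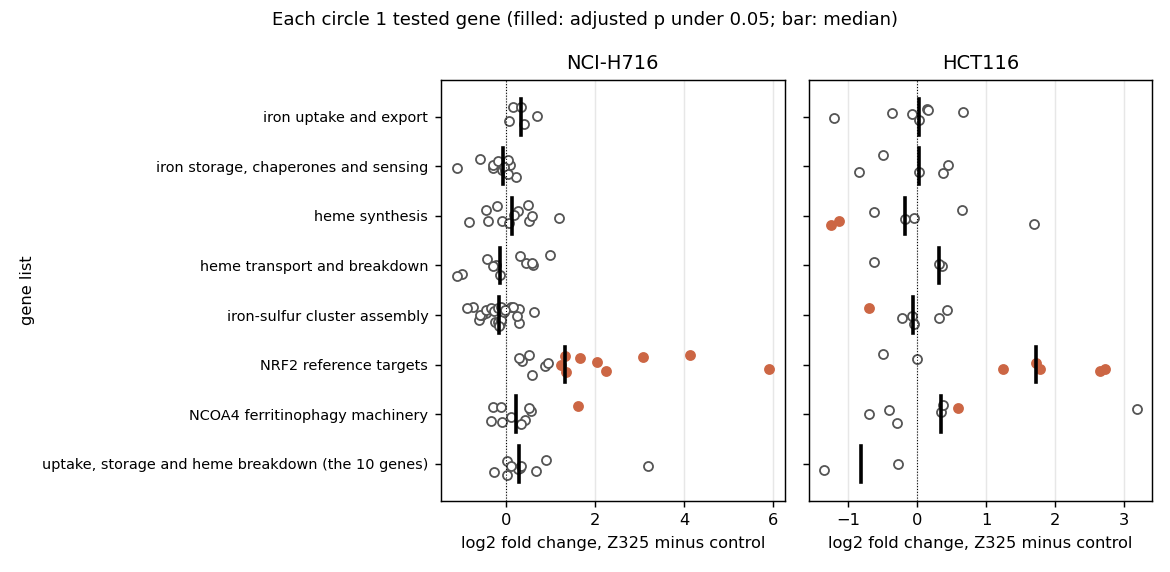
Log2 fold change, Z325 minus control, of each tested gene of 7 lists and of the 10 members in NCI-H716 (left) and HCT116 (right), with filled circles for an adjusted p under 0.05 in edgeR and a bar at the median. The filled circles lie mostly in the NRF2 list, with medians of 1.31 and 1.73, and the members hold none.

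Markers of cells rich in iron or heme were also read. In NCI-H716 the summed erythroid markers were 53.3 and 18.9 CPM in the controls and 20.2 and 10.3 CPM under Z325, almost all of it from HBA1 and HBB. These 2 went opposite ways, HBA1 from 51.6 and 15.6 CPM to 15.4 and 2.51 CPM and HBB from 1.59 and 3.30 CPM to 4.89 and 7.69 CPM, with SLC4A1 and ALAS2 at 0 in every library. The summed macrophage markers ran from 3.17 to 7.95 CPM over the 4 libraries. Their part in the values of HMOX1 and the ferritins was not tested.

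The promoters of 8 of the 10 members were on the RefSeq table of GRCh38.p14, from 250 bases before to 50 after each start. The motif TGACNNNGC, the core of the antioxidant response element, was searched on both strands and was in 1 of the 13 windows of these genes, for NCOA4, while 13.3% of all 35116 windows held it. FTH1 and HMOX1 had no entry, and sites outside these windows were not searched, so the count says nothing of elements farther from the starts.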

How the data were processed

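Full-length cDNA had been amplified from about 100 cells per reaction in 8 libraries. The authors' methods name TrimGalore, STAR (on GRCh38) and RSEM, and the labels' processing notes list Bowtie2 2.5.0, featureCounts and hg38. For NCI-H716 the authors deposited 1 RSEM table per library, which lists for each gene its expected count, its FPKM and its TPM. For HCT116 the authors deposited 1 table of read counts per gene, not normalized, with positions and lengths, in the layout of featureCounts. The part of that table used here ends on chromosome 9, and 4 broken or unfinished lines were left out. For each chromosome from 1 to 8 it holds 99.84% or more of the genes in GENCODE v44. How reads shared between overlapping genes or copies were counted, and whether strand was used, is not given in the sources used here.

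Expected counts were rounded, and GENCODE v44 gave a symbol for 62666 of the 63241 gene identifiers. Each line was fitted alone in edgeR 4.0.16 (R 4.3.3) with TMM scaling, filterByExpr and the quasi-likelihood test, with Benjamini-Hochberg adjustment over all genes tested and a threshold of 0.05. The standard error of a fold change was derived from the F statistic. CPM values are TMM-normalized, and TPM for HCT116 was computed from counts and exon lengths. The difference between lines was the interaction over all 8 libraries. With 2 libraries against 2, an exact test of a single value cannot go below p = 0.333. The steps were tested on simulated data. The precision of a value is set by the library totals and by 2 libraries per group.

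The members, lists, markers and alternatives were chosen with earlier results of these data known. Of the 7 lists of 110 genes in all, the text names at most 5 genes per line, those of smallest adjusted p, and further the 5 genes nearest to the member of smallest adjusted p in NCI-H716 and the FTH1 and FTL pseudogene copies by symbol. Some of the genes so selected are left out. Alternatives were DESeq2 1.42.0, no TMM scaling, no filter, a filter at 10 counts in each library, limma 3.58.1 on log2(FPKM + 1) or log2(FPKM + 0.1), a replicate block, all libraries in 1 fit, pseudogene copies summed and each library left out in turn. Those for BEST1 and the pseudogene copies were added after seeing the data. Values and figures were made with Python 3.11.15, pandas 2.3.3 and matplotlib 3.10.9.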

Additional observations from a re-analysis of the deposited data

How the results depend on the processing

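Of the 10 members in NCI-H716, 0 passed an adjusted p of 0.05, against 1 in DESeq2, 3 with no filter and 1 to 3 with 1 library left out. The remaining settings, apart from the block below, also gave 0. In HCT116 the count was 0 in every setting except that it ran from 0 to 1 with 1 library left out, and between the lines it was 0 throughout. Over the wider lists DESeq2 called 16 genes in NCI-H716 and 14 in HCT116, and with 1 library left out the counts ran from 7 to 24 and from 0 to 17. These lists held 89 tested genes in NCI-H716 and 42 in HCT116, and DESeq2 called 2.57% and 11.7% of all genes. The share of all genes that passed in edgeR also moved with the library left out. In HCT116 it fell with either control left out and rose with either Z325 library left out. The ranges over the lists are therefore not a property of the lists alone. IREB2 was at -0.03 with limma on log2(FPKM + 1) and at -0.03 on log2(FPKM + 0.1). With 1 library left out, log2 fold changes in NCI-H716 ran from -0.003968 to 1.15 for FTL, from -0.15 to 0.21 for SLC40A1, from -0.01 to 0.49 for SLC11A2, from -0.15 to 0.22 for IREB2 and from -0.07 to 0.31 for ACO1, and the difference between the lines for SLC40A1, which rests on 7 counts in HCT116, ran from -3.70 to 3.46. The cause of these changes was not tested.

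Libraries of different groups share replicate numbers 1 and 2, but the labels do not say that a number marks a batch. The deviations of libraries with the same number from their group means correlated at -0.031 in HCT116 and 0.198 in NCI-H716. With the replicate number as a block, 3 members passed in NCI-H716 (FTH1, FTL and HMOX1) and 0 in HCT116 and between the lines, while the share of all genes that passed in NCI-H716 went from 0.502% to 16.9%. Over the lists the block gave 35 genes in NCI-H716 and 9 in HCT116, against 16.9% and 5.87% of all genes. With 2 libraries per group, and 3434620 counts in the shallowest, small differences in low genes such as STEAP3 and HMOX1 are poorly bounded.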
